A study of Mus musculus with 6 samples.

Results

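The complement components and collectins described here are 33 genes measured on arrays of C3H10T1/2 adipocytes, out of 37 listed genes of the pathway and of 21996 named genes in all. A member was taken from a probe set whose annotation gives its symbol alone, with the highest mean over the 6 arrays where a gene had several. The probe set was thus chosen by its mean level, a measured value, and each of the 33 had a single candidate. Masp2 shares its probe set with another gene, and it was not analysed here, nor were C1ra, C3 and Cfd. The list was drawn up with results of these arrays known, so the calls below describe single genes and are no evidence about the group.

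C3H10T1/2 is a mouse mesenchymal cell line that can be differentiated into adipocytes. The cultures are all labelled as 9 days of differentiation and received adenovirus for 72 h (multiplicity of infection 50), with the hairpin under a U6 promoter. The scramble group (3 biological replicates) received a scrambled short hairpin RNA. The Zc3h10 shRNA group (3 biological replicates) received a hairpin against Zc3h10, the gene of a zinc finger RNA-binding protein, from a single construct. Cultures without virus were not analysed here.

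Complement is a cascade of blood-borne proteases and binding proteins that tags surfaces for removal and can end in a pore, the membrane attack complex. The classical pathway starts when C1q binds, the lectin pathway when collectins or ficolins bind sugars and activate the MASP proteases, and the alternative pathway runs on C3, factor B and factor D, stabilised by properdin. Most of the soluble components are made in the liver, C1q is made mainly by macrophages, and fat cells are known as a source of factor D, also called adipsin.

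Median array intensities lay between 15.6 and 16.1. Of 12 adipocyte markers, 12 were above background in both groups and 12 fell in the Zc3h10 shRNA cultures, with a median log2 difference of -1.06. The targeted transcript, Zc3h10, read 25.9, 39.0 and 35.3 intensity units on the scramble arrays and 25.2, 30.2 and 22.9 on the shRNA arrays, overlapping groups whose log2 difference of -0.34 ± 0.17 (SE) did not pass (limma, adjusted p = 0.301). Its shRNA mean of 26.1 units lies close to the background limit set below (20.3 units), so the size of a fall is uncertain. Differences throughout are the mean log2 intensity of Zc3h10 shRNA minus that of scramble, ± the standard error of a limma fit over all 33079 probe sets. A gene is called where its Benjamini-Hochberg adjusted p from that fit is under 0.05. With 3 arrays in each group the number of arrays limits precision, and fewer cells of a type and less RNA per cell cannot be told apart in these bulk cultures.

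Most of the complement genes were not distinguishable from silent genes in these adipocytes. The limit was set by 1096 olfactory receptor genes, which are mostly silent outside the nose: the upper bound of the middle 95% of their group means, at a log2 of 4.33 (20.1 intensity units) in scramble and 4.34 (20.3 units) in Zc3h10 shRNA. By that limit 9 members were above background in both groups, Cfp was above it in scramble and not in Zc3h10 shRNA, and 23 were at background in both. Over all named genes, 46.1% were at background in both groups. Nearest above the scramble limit were Fcna, with a mean log2 of 4.71, and Cfp, at 4.88. Nearest below it were Cd46, at 4.25, and C1qa, at 4.21. Probe sets differ in how they bind, so the limit marks a range and not a detection call.

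**Figure D1:**
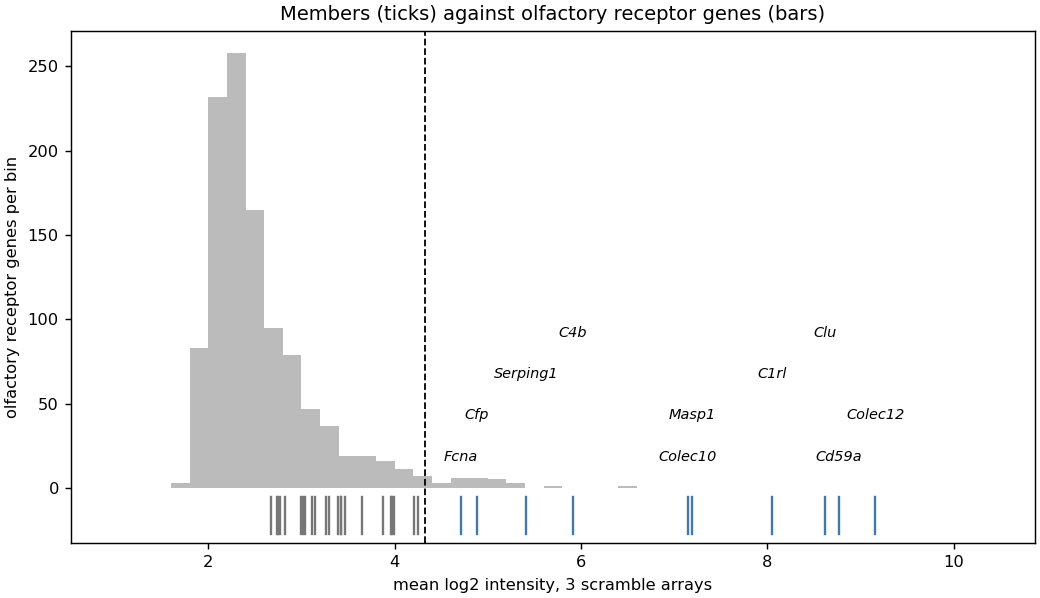
Mean log2 intensity over the 3 scramble arrays for 1096 olfactory receptor genes (grey bars, genes per bin of the histogram) and for the 33 members (ticks under the axis, blue with names where above background). The dashed line is the limit at 4.33, with 10 members to its right and 23 to its left.

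Among the members above background, 3 were called whichever array was left out, all of them higher in the Zc3h10 shRNA cultures: the collectins Colec10 and Colec12 and the lectin pathway protease Masp1. Cd59a, an inhibitor of the membrane attack complex, rose by a smaller amount and Cfp, the gene of properdin, fell, both with adjusted p values near the threshold. In all, 4 of 33 members were called higher, where 5.51% of named genes were, and 1 was called lower, where 6.6% of named genes were. The median log2 difference of the 33 members was 0.00, and that of all named genes was 0.01. An unadjusted limma p under 0.05 was reached by 9 of the 33 members and by 5545 of the 21996 named genes. Later counts at an unadjusted p are to be read against that share of all named genes. Of the 9 members above background in both groups 4 were called, beside 21.4% of the 11340 named genes above background in both groups.

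**Figure D2:**
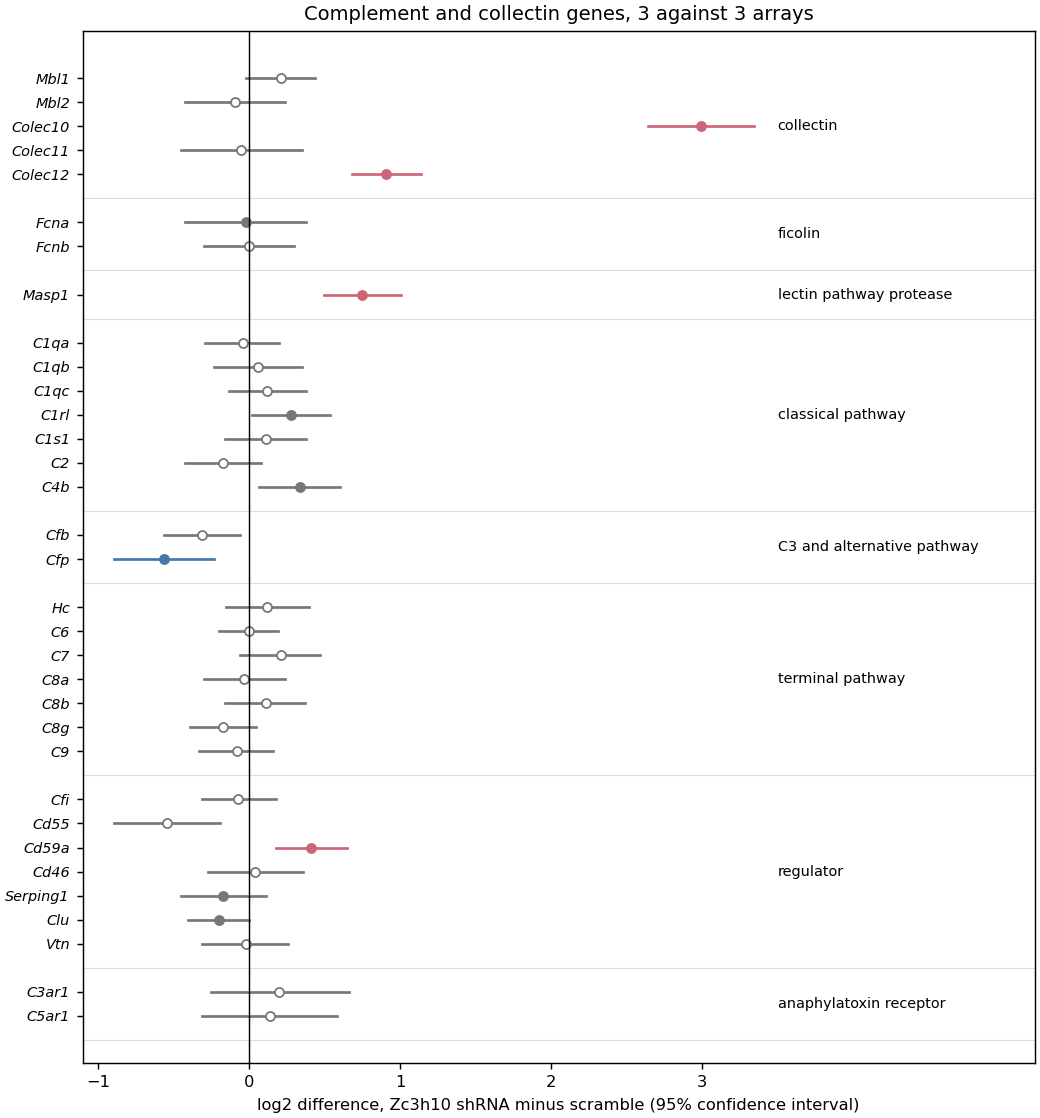
Log2 difference (Zc3h10 shRNA minus scramble, horizontal axis) with its 95% confidence interval for the 33 members, ordered by role; red marks genes called higher, blue lower and grey not called, and open circles mark genes at background in both groups. Colec10 stands at 2.99, Colec12 at 0.91, Masp1 at 0.75 and Cd59a at 0.41, and Cfp at -0.56.

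The RefSeq promoter table held 27 of the 37 listed genes, and of the 5 called members it held Cd59a and Cfp, which moved in opposite directions. Their 250 bases before the annotated start site are shown for that reason, 5′ to 3′ on the gene's strand, with matches to the searched motifs in capitals. The Cd59a stretch lies at chr2:104095551-104095800 on the plus strand and the Cfp stretch at chrX:20931556-20931805 on the minus strand (GRCm38.p6).
Cd59a: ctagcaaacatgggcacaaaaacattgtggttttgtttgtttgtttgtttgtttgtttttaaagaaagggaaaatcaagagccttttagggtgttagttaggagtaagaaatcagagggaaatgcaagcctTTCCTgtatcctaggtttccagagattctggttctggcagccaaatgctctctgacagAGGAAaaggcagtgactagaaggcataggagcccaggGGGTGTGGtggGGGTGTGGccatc
Cfp: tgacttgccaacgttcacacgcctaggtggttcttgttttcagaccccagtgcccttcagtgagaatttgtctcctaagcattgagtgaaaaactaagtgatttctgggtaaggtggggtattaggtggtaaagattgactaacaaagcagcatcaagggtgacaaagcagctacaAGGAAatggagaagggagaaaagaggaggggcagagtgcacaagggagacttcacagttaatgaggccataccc
Both strands were searched for 7 motifs over the windows of 300 bases that reach 50 bases past the start site. The Cd59a window held the CACCC box GGGTGTGG at 2 places, starting 24 and 13 bases before the start site, a motif present in 3.56% of 32851 promoters of this length. The ETS core AGGAA was found in both windows, and in 66.7% of all promoters. The TATA box (TATAAA), the CCAAT box (CCAAT), the GC box (GGGCGG), a STAT site (TTCNNNGAA) and a C/EBP site (TTGCNNCAA) were not among the letters of either window. The CACCC box and the ETS core were added after these sequences had been read, so the shares do not measure how unusual these matches are. Both genes were called only near the threshold. A link between these letters and the direction of either gene was not tested.

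The collectins are secreted or membrane-bound lectins with a collagen stalk and a sugar-binding head. Colec10 encodes collectin liver 1, which forms mixed oligomers with the product of Colec11 and can engage MASP proteases. It read 181, 121 and 131 intensity units in scramble and 1053, 1135 and 1211 in Zc3h10 shRNA, in replicate order. The lowest shRNA array was far above the highest scramble array. The means were 144 ± 31.8 and 1133 ± 79.0 (SD, n = 3 each), and the log2 difference of 2.99 ± 0.15 is a 7.95-fold rise with a 95% confidence interval of 6.22 to 10.2 (limma, adjusted p = 0.000549). This difference ranked 1 from the top among the 21996 named genes.

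Colec12 encodes a membrane collectin that acts as a scavenger receptor. It read 606, 556 and 556 on the scramble arrays and 1005, 1043 and 1189.5 on the Zc3h10 shRNA arrays, so every shRNA array was above every scramble array. The means were 573 ± 28.9 and 1079 ± 97.52 (SD, n = 3 each). The rise was 0.91 ± 0.10 on the log2 scale, or 1.88-fold with a 95% confidence interval of 1.60 to 2.21 (limma, adjusted p = 0.00151), and ranked 150 from the top.

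The other collectins were at background. Colec11, the partner of Colec10 in mixed oligomers, read 12.6, 15.6 and 16.2 units on the scramble arrays and 10.99, 16.3 and 16.0 on the shRNA arrays. The groups overlapped, and its log2 difference was -0.05 with a 95% confidence interval of -0.45 to 0.35. The mannose-binding lectin genes Mbl1 and Mbl2 stayed between 6.90 and 10.8 units on the 6 arrays. Of the ficolins, lectins with a fibrinogen-like head, Fcnb was at background and Fcna was just above it. Fcna read 30.4, 20.5 and 28.8 on the scramble arrays and 24.4, 30.7 and 22.9 on the shRNA arrays, overlapping groups with a log2 difference of -0.02 (95% confidence interval -0.42 to 0.38).

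Masp1 encodes the MASP-1 protease of the lectin pathway and, by alternative splicing, the MASP-3 protease, which activates pro-factor D. The sources used here do not say which of these transcripts the probe set reads. The intensities were 168, 137 and 136 on the scramble arrays and 235, 245 and 258 on the Zc3h10 shRNA arrays. All 3 shRNA arrays lay above all 3 scramble arrays. The means were 147 ± 18.1 and 246 ± 11.6 (SD, n = 3 each), a log2 difference of 0.75 ± 0.11, or 1.68-fold with a 95% confidence interval of 1.41 to 2.01 (limma, adjusted p = 0.00476).

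**Figure D3:**
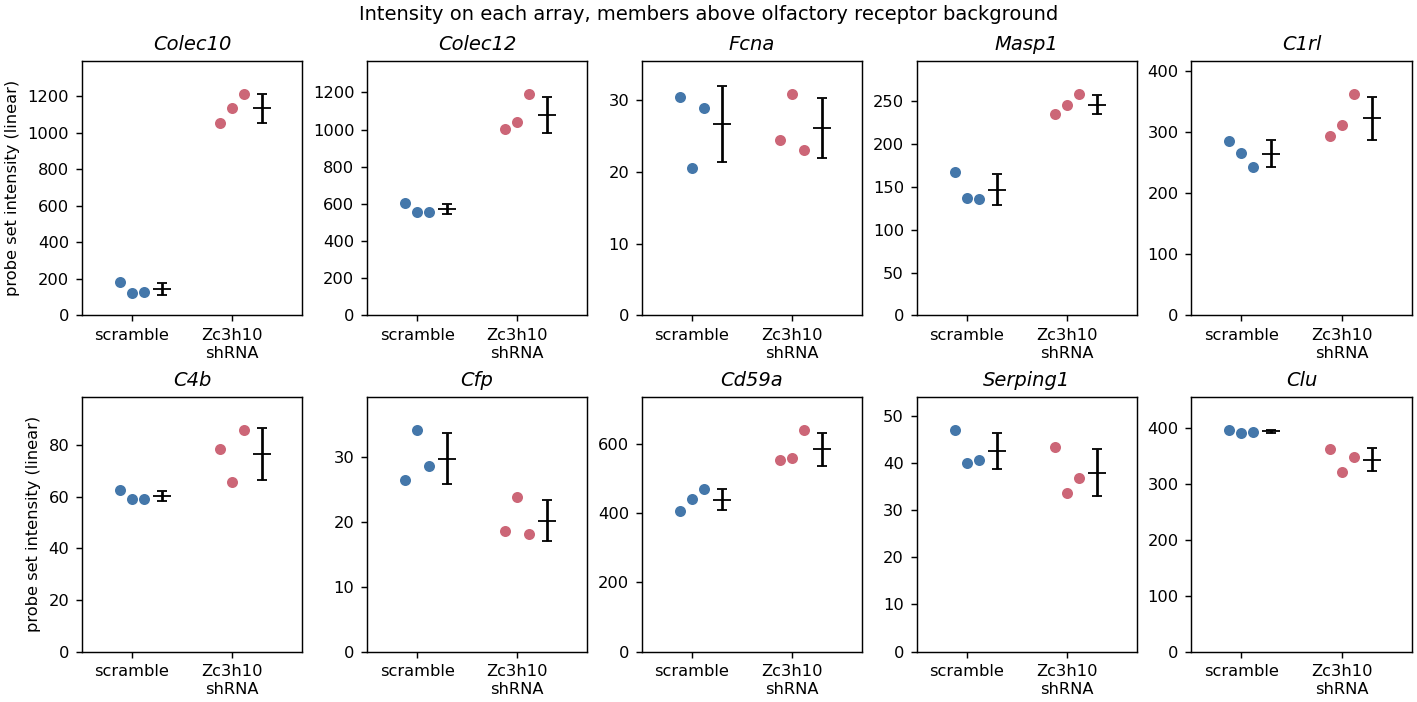
Probe set intensity (linear axis from 0) on each array for the 10 members above background in at least 1 group; points are the 3 arrays of scramble (blue) and of Zc3h10 shRNA (red), and the black bar is the mean with its SD. Colec10 rises from 144 to 1133 on average, and the Fcna groups overlap.

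The classical pathway genes gave no call (limma, 0 of 7 measured). Of these 7, 2 had an unadjusted p under 0.05, beside 5545 of 21996 named genes, and 0 passed with the ordinary t statistic. C1qa, C1qb and C1qc, which encode the chains of C1q, were at background, with log2 differences of -0.04, 0.06 and 0.12. The C1s protease gene C1s1 and C2, the protease of the classical C3 convertase, were at background too. C4b, the gene of component C4, was above background and read 62.6, 59.0 and 59.3 on the scramble arrays and 78.3, 65.6 and 85.7 on the shRNA arrays. The groups did not overlap, but the log2 difference of 0.34 ± 0.11 did not pass (limma, adjusted p = 0.124). Its close paralog C4a may bind the same probes, which was not checked, so this value is uncertain. The probe set of C4a itself was at background, averaging 11.6 units in scramble and 11.1 in Zc3h10 shRNA.

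C1rl, a gene related to the C1r protease, was also above background. It read 286, 266 and 243 on the scramble arrays and 294, 312 and 362 on the Zc3h10 shRNA arrays. The groups stood apart by a narrow gap, and the log2 difference of 0.28 ± 0.11 did not pass (limma, adjusted p = 0.188). Its 95% confidence interval, 1.02-fold to 1.46-fold, leaves out a rise as large as that of Colec12.

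In the alternative pathway, Cfp encodes properdin, which stabilises the C3 convertase. It read 26.4, 34.1 and 28.6 units on the scramble arrays and 18.5, 23.8 and 18.1 on the Zc3h10 shRNA arrays. Every shRNA array was below every scramble array, and 2 of the 3 shRNA arrays were under the background limit. The means were 29.7 ± 3.95 and 20.2 ± 3.17 (SD, n = 3 each), a log2 difference of -0.56 ± 0.14 (1.48-fold lower, limma, adjusted p = 0.0455). With the shRNA mean at background, the size of this fall is uncertain. The call was lost when any array other than shRNA replicate 2 was left out (adjusted p = 0.0553 to 0.149) and with the ordinary t statistic (adjusted p = 0.174). With an offset of 32 before log2 it was also lost, and the difference was -0.24 (adjusted p = 0.0567). Cfb, the gene of factor B, was at background, with 15.8, 13.9 and 17.4 units on the scramble arrays and 11.9, 12.7 and 13.3 on the shRNA arrays (limma, adjusted p = 0.138).

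All 7 measured genes of the terminal pathway, which builds the membrane attack complex, were at background in both groups. These are Hc, the mouse gene of component C5, and C6, C7, C8a, C8b, C8g and C9. Their log2 differences lay between -0.17 and 0.21, and none was called (limma; 0 at an unadjusted p under 0.05 and 0 with the ordinary t statistic). The anaphylatoxin receptor genes C3ar1 and C5ar1 were at background as well, at 5.37 to 9.29 units and 10.6 to 18.3 units over the 6 arrays.

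Regulators keep complement off the cell's own surface or out of the fluid phase. Cd59a, a surface protein that blocks the pore, read 407, 439 and 469 on the scramble arrays and 555, 559 and 639 on the Zc3h10 shRNA arrays. The groups did not overlap. The means were 438 ± 30.9 and 584 ± 47.5 (SD, n = 3 each), and the rise of 0.41 ± 0.10 on the log2 scale was 1.33-fold (95% confidence interval 1.13 to 1.57; limma, adjusted p = 0.0405). The call was lost without any 1 of the 6 arrays (adjusted p = 0.0649 to 0.132), with each array centred on its median (0.0537) and with the ordinary t statistic (0.0934). The neighbouring paralog Cd59b was at background, averaging 7.96 units in scramble and 7.02 in Zc3h10 shRNA.

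Clu, the gene of the extracellular chaperone clusterin, which also restrains the terminal complex, read 396, 392 and 394 on the scramble arrays and 362, 322 and 348 on the Zc3h10 shRNA arrays. All shRNA arrays were lower, and the log2 difference of -0.20 ± 0.09 did not pass (limma, adjusted p = 0.237), although it passed with an offset of 32 before log2 (-0.18, adjusted p = 0.0383). Serping1, the gene of the C1 inhibitor, read 46.9, 39.9 and 40.6 on the scramble arrays and 43.3, 33.6 and 36.8 on the shRNA arrays. These groups overlapped, with a log2 difference of -0.17 ± 0.12 (limma, adjusted p = 0.503). Cd55, which speeds the decay of C3 convertases, was at background at 9.59, 13.3 and 9.15 units against 6.53, 7.72 and 7.51, with a log2 difference of -0.54 ± 0.15 that did not pass (limma, adjusted p = 0.0678). Cfi, the protease factor I, the C3b and C4b cofactor Cd46, and Vtn, the gene of vitronectin, were at background, and their groups overlapped.

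Over the 33 members, no overlap between the 3 arrays of either group was seen for 7 genes that were higher in Zc3h10 shRNA and 6 that were lower, beside 16.7% and 15.2% of all named genes. Of those 13 genes, 8 were above background in at least 1 group. The 23 members at background had log2 differences between -0.54 and 0.21, and 0 of them were called by limma (2 at an unadjusted p under 0.05, Cfb and Cd55, and 0 with the ordinary t statistic).

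The calls of Colec10, Colec12 and Masp1 held when any 1 array was left out. Colec10 stayed between 2.88 and 3.16 on the log2 scale (largest adjusted p = 0.00603), Colec12 between 0.84 and 0.96 (0.0103) and Masp1 between 0.70 and 0.85 (0.0259). The ordinary t statistic called these 3 members and no other (adjusted p = 0.0173, 0.0237 and 0.0430).

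**Figure D4:**
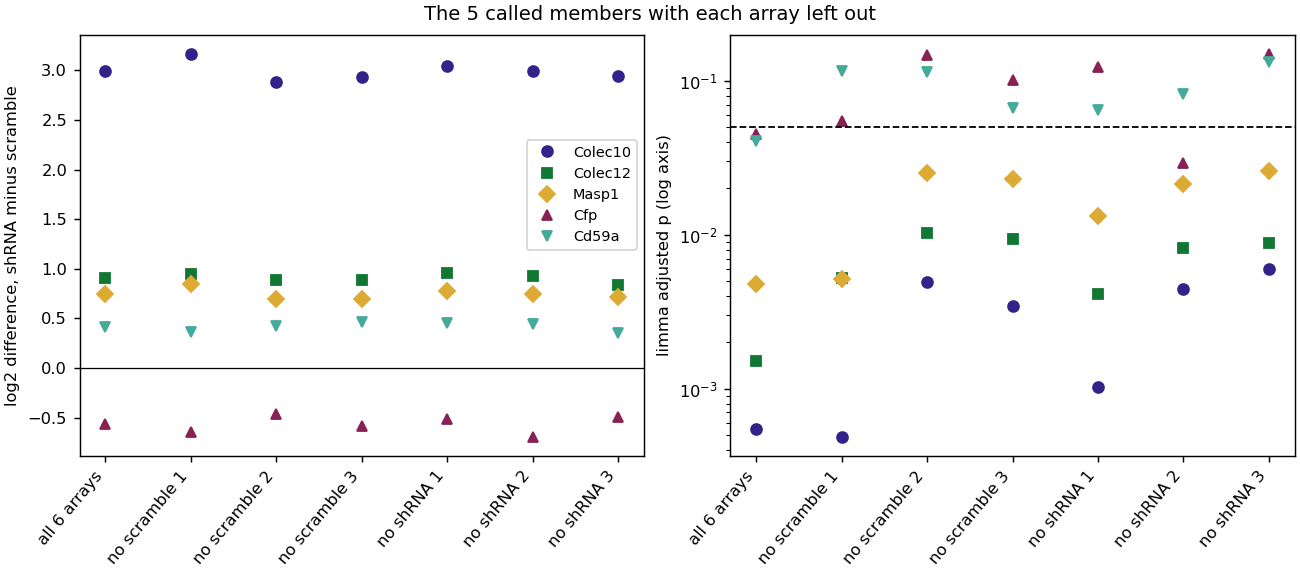
Left, the log2 difference (Zc3h10 shRNA minus scramble) of the 5 called members with all 6 arrays and with each array left out; right, the limma adjusted p on a log axis, with the threshold of 0.05 dashed. Colec10, Colec12 and Masp1 stay under the line in each case, and Cd59a lies above it whenever an array is left out.

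Gene order on the chromosomes was taken from RefSeq (GRCm38.p6), by name only. The nearest measured protein-coding neighbours of Colec10 are Tnfrsf11b, the gene of the decoy receptor osteoprotegerin, and Mal2. Tnfrsf11b averaged 159 units in scramble and 174 in Zc3h10 shRNA (limma, adjusted p = 0.601), and Mal2 12.6 and 12.7. The next gene beyond Mal2, the matricellular gene Ccn3, rose by 0.51 on the log2 scale (adjusted p = 0.0180, and at most 0.0664 with an array left out). Beside Masp1, Rtp1 and Rtp4 were not called, and beyond Rtp1 the sialyltransferase gene St6gal1 rose by 0.51 (adjusted p = 0.0260, and at most 0.0908 with an array left out). Beside Colec12, Thoc1, a subunit of an mRNA export complex, fell by 0.37 (adjusted p = 0.0378, and at most 0.120 with an array left out). Beside Cd59a, Cd59b and A930018P22Rik were not called, and beyond Cd59b the F-box gene Fbxo3 fell by 0.60 (adjusted p = 0.00442). Next to Cfp lies Timp1, an inhibitor of matrix metalloproteinases, which went the other way, from 102 to 200.5 units on average, a log2 difference of 0.98 (adjusted p = 0.00254). Elk1, on the other side of Cfp, was not called. The remaining genes at the same distance were not called either. Several members lie side by side, namely C1qa, C1qc and C1qb, then C8a and C8b, and then C2 and Cfb, and all of these were at background. C1rl, C1ra and C1s1 also follow one another, with C1rl above background and C1s1 at it.

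Other complement genes outside the 37 were mostly at background as well. Of 26 measured from a list of 30, 20 were at background in both groups. Of the 26, 1 rose and 2 fell, beside 5.51% and 6.6% of all named genes. The median log2 difference of the 26 was 0.03. Ptx3, a pattern recognition protein that binds C1q, read 283, 216 and 235.5 on the scramble arrays and 501, 408 and 478 on the shRNA arrays, a rise of 0.92 ± 0.13 (limma, adjusted p = 0.00408). C1qbp, a mitochondrial protein first isolated by its binding to C1q, fell by 0.50 ± 0.11 (adjusted p = 0.0251). Csmd3, a large membrane protein with complement control repeats, was at -0.56 ± 0.10 (adjusted p = 0.0108), from a scramble mean within background. The 2 falls became 1 when scramble replicate 2, scramble replicate 3, shRNA replicate 2 or shRNA replicate 3 was left out, and the ordinary t statistic called 1 of the 26.

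Among genes of proteins that share the globular head of C1q, calls went in both directions. Of 25 measured, 2 rose and 2 fell, beside 5.51% and 6.6% of all named genes. The median was 0.05. Adiponectin, Adipoq, fell from 542 to 303.5 units on average, at -0.84 ± 0.08 (limma, adjusted p = 0.00116), and C1qtnf12, also called adipolin, at -1.44 ± 0.19 (adjusted p = 0.00279). The matrix protein gene Emilin2 rose by 0.84 ± 0.13 (adjusted p = 0.00527) and C1qtnf6 by 0.69 ± 0.12 (adjusted p = 0.0111). The ordinary t statistic called 1 of these genes.

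Acute phase proteins, which the liver secretes together with complement in inflammation and some of which fat cells also make, were lower where they were called. Of 21 measured, 5 fell and 0 rose, beside 6.6% and 5.51% of all named genes, with a median of -0.20. An unadjusted limma p under 0.05 was found for 11 of the 21, beside 5545 of 21996 named genes. The orosomucoid gene Orm1 read 276.5, 316 and 304 on the scramble arrays and 135, 109 and 104 on the shRNA arrays, at -1.37 ± 0.12 (limma, adjusted p = 0.000806). Haptoglobin, Hp, was at -1.20 ± 0.12 (adjusted p = 0.00107) and Orm2 at -0.97 ± 0.15 (adjusted p = 0.00634). Saa3 and Saa4 fell too, but both were within background in both groups. Saa3 lost its call without scramble replicate 2 or 3 or shRNA replicate 1 or 3 (limma, adjusted p = 0.0601 to 0.123). The orosomucoid and serum amyloid genes have close paralogs that may share probes, which was not checked. The ordinary t statistic called 2 of the 21, and 3 falls and 1 rise were called when probe sets dimmer than the median were dropped. That filter removed Saa3 and Saa4 themselves. A rise was also called for 1 gene without shRNA replicate 1 and for 2 genes when the limma prior followed intensity. Among the receptors and signalling genes of the acute phase, 3 of 24 rose and 0 fell, beside 5.51% and 6.6% of all named genes. Of the 24, 19 were above background in each group, and 21.4% of the 11340 named genes above background in both groups were called. An unadjusted limma p under 0.05 was reached by 5 of the 24, beside 5545 of 21996 named genes. A fall was called for 1 gene when probe sets dimmer than the median were dropped and when the limma prior followed intensity. The oncostatin M receptor gene Osmr rose by 1.02 ± 0.11 (adjusted p = 0.00124), the interleukin 1 receptor gene Il1r1 by 1.00 ± 0.11 (adjusted p = 0.00146) and Lifr by 0.43 ± 0.11 (adjusted p = 0.0449). The call of Lifr was lost when any array other than shRNA replicate 1 was left out (adjusted p = 0.105 to 0.137), with each array centred on its median (0.0541) and with the ordinary t statistic (0.118). Il6 was at background, and Stat3, which carries the interleukin 6 signal, was at 0.14 (adjusted p = 0.405).

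Interferons are known to raise several complement genes. Of 28 interferon response genes, 5 had an unadjusted limma p under 0.05, beside 5545 of 21996 named genes. Among the 28, 0 were called by limma and 0 with the ordinary t statistic, and the median was -0.04. Without scramble replicate 3, 2 of them were called higher. Without shRNA replicate 1, 1 was, and also when the limma prior followed intensity. Several of the 28 read highest among the scramble arrays on replicate 3. The summed intensity of the 28 was 1490 to 2100 on the scramble arrays and 1490 to 1830 on the shRNA arrays. This spread within scramble limits what the lack of calls can show. In coagulation and fibrinolysis, a protease system related to complement, 7 of 24 measured genes rose and 1 fell, with a median of 0.12. Over all named genes, 5.51% were called higher and 6.6% lower. The plasminogen activator genes Plau and Plat rose by 1.40 ± 0.12 (limma, adjusted p = 0.000697) and 1.26 ± 0.11 (adjusted p = 0.000828), and thrombomodulin, Thbd, by 1.12 ± 0.12 (adjusted p = 0.00132). The fall, that of F5, was within background in both groups and was lost without scramble replicate 2. With the ordinary t statistic 5 of the 24 passed.

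**Figure D5:**
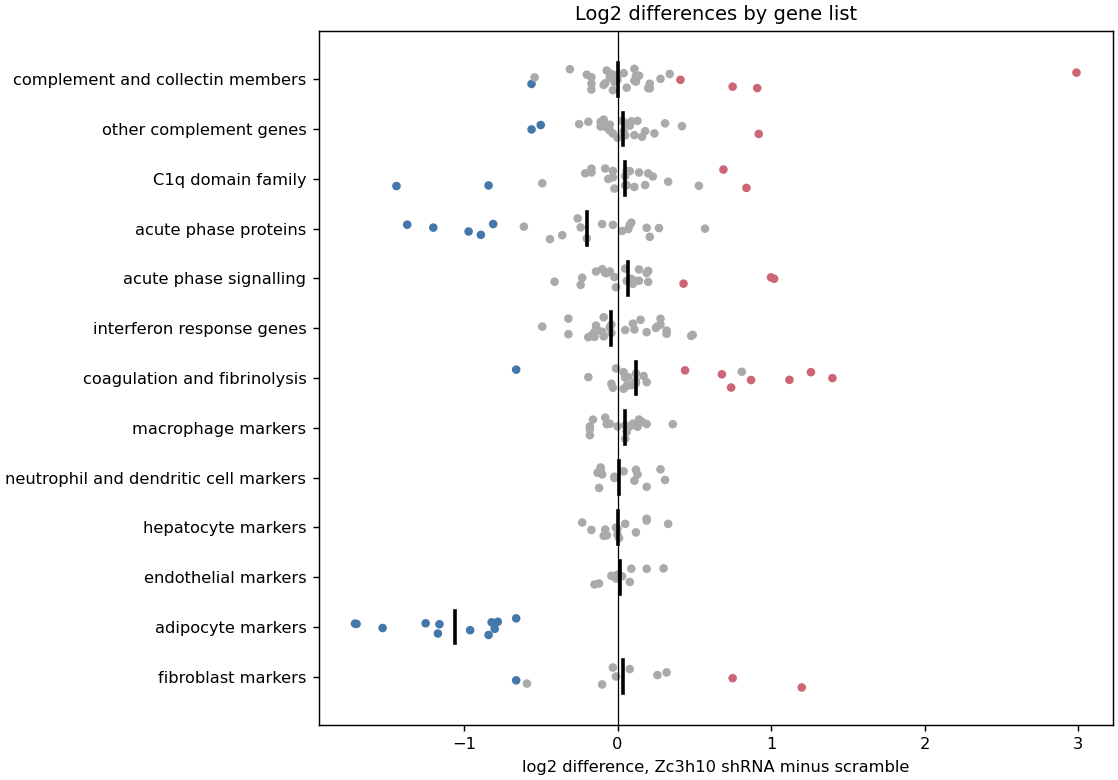
Log2 difference (Zc3h10 shRNA minus scramble, horizontal axis) of each measured gene in the complement and collectin members and in 12 further lists; red marks genes called higher, blue lower and grey not called, and the black bar is the median of each list. The adipocyte markers have a median of -1.06, and the medians of the members and of the macrophage markers are 0.00 and 0.05.

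Markers of cells that could bring complement transcripts into the cultures were mostly at background. Of 19 macrophage markers, 14 were at background in both groups, among them Adgre1, Csf1r, Lyz2, Mrc1 and Ptprc. The other 5 were above background in both groups, namely Cd68 (a mean of 44.6 units in scramble and 40.3 in Zc3h10 shRNA), Cd14 (39.6 and 39.6), Cx3cr1 (31.9 and 33.9), Fcer1g (25.2 and 22.3) and Marco (21.9 and 25.1). The summed intensity of the 19 was 294 to 302 on the scramble arrays and 286 to 311 on the shRNA arrays. Of 14 hepatocyte markers, 10 were at background, among them Alb, Ttr and Apob, and Apoa1 (21.6 and 20.3), Apoa2 (38.4 and 43.7), Hnf4a (25.6 and 26.5) and Apoc3 (28.9 and 24.8) were above it in both groups, with sums of 203 to 213 and 202 to 224 over the 14. Of 10 endothelial markers 8 were at background, with sums of 145 to 155 and 146 to 171, and of 14 neutrophil and dendritic cell markers 13 were, with sums of 512 to 569 and 489 to 534, most of it from Cd209a. None of these markers was called by limma (1, 1, 0 and 2 at an unadjusted p under 0.05, and 0 in each with the ordinary t statistic). The fibroblast markers were all above background (10 of 10), with sums of 16300 to 18600 in scramble and 22000 to 22600 in Zc3h10 shRNA. Most of the difference in the sums came from fibronectin, Fn1, which averaged 2903 units in scramble and 6636 in Zc3h10 shRNA. The median log2 difference of the fibroblast markers was 0.03, and 7 of the 10 were not called. Of all named genes above background in both groups, 21.4% were called. Fn1 rose by 1.20 ± 0.11 (limma, adjusted p = 0.000881) and Pdgfrb by 0.75 ± 0.12 (adjusted p = 0.00722), and Pdgfra fell by 0.66 ± 0.10 (adjusted p = 0.00551). The summed adipocyte markers were 21900 to 24500 on the scramble arrays and 11900 to 12900 on the shRNA arrays. The part of the adipocyte and fibroblast markers in the changes of Colec10, Colec12, Masp1, Cd59a and Cfp was not tested.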

How the data were processed

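Total RNA from 6 cultures was hybridised, biotin labelled, to 1 Affymetrix array each, per the labels. The deposited table holds linear intensities, 1 per probe set and array, whose quartiles are nearly equal across arrays. The submitters' processing notes name Affymetrix Expression Console and Partek 6.6. The sources used here do not state the background correction or normalization, on which dim probe sets depend most. Log2 was taken with no pseudocount or further scaling, and 33079 probe sets were tested with limma 3.58.1 in R 4.3.3 (two-sided, default prior). The code was tested on simulated data. Of the probe sets, 23043 had 1 symbol in the platform annotation, 1740 several and 8296 none here. RefSeq gene numbers changed 0 symbols. Genes could be named if they were members, Zc3h10, among the 4 smallest p values of a list, or macrophage, adipocyte or hepatocyte markers; neighbours, Il6, Stat3, Cd59b, Saa3, F5 and Cd209a were named outside this rule after their values were seen. Members and lists were chosen with earlier results of these data known. The alternatives were other scalings, offsets, filters and variance models, arrays left out, and other background limits.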

Additional observations from a re-analysis of the deposited data

How the results depend on the processing

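With 1 array left out, 1807 to 2578 probe sets were called, 3 or 4 members in all and 0 or 1 member lower. The ordinary t statistic called 1972 probe sets, 3 members, 0 members lower and 23 list genes. With the percentile 95 of olfactory receptors as the limit, 16 members were above background, where 10 were with the limit used. The uncalled Fcna changed sign with an array left out (-0.20 to 0.09). With an intensity trend the fibroblast markers called higher went from 2 to 4. Zc3h10 was not called under any alternative run. Same-numbered cultures showed no shared deviation (correlations of 0.0845, -0.00464 and 0.0425 over 33079 probe sets). That check cannot tell whether they were handled together, and the main fit does not pair them. A fit with the replicate number as a block called 2455 probe sets and 4 members, without Cd59a (adjusted p = 0.0541), and lost Lifr (0.0591), C1qbp (0.0714), Thoc1 (0.0846) and, at the threshold, Ccn3. Each measured member had 1 probe set, so averaging probe sets changed nothing. Intensities near background limit the dim members, and the cause of these shifts was not tested.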
